A study of Homo sapiens with 4 samples.

Results

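The E2F and DP genes, which encode the transcription factors that switch cell-cycle genes on and off, were followed in PANC-1 cells with and without knockdown of H2A.Z, a variant histone that replaces H2A in some nucleosomes. The members were the 8 E2F genes (E2F1 to E2F8) and the 2 genes of their DP partners (TFDP1 and TFDP2), taken by gene symbol, 10 of the 15220 genes with values. All 10 were among the 15100 genes tested. PANC-1 is a cell line from a human pancreatic adenocarcinoma. The libraries used were made from polyadenylated RNA of unmodified PANC-1 cells (2 libraries) and of PZT-2 (2 libraries), a line that is 1 puromycin-selected clone of PANC-1 in which lentiviral hairpins from a U6 promoter target the H2AFZ and H2AFV transcripts. Both lines were taken at passages 12 to 13 and grown in the same serum-containing medium, so the lines differed in the hairpins, the vector, the selection and the cloning together, and in these 4 libraries they cannot be told apart. The study also sequenced a line with a scrambled hairpin, as a control for vector and selection, which was not analysed here.

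E2F proteins bind DNA mostly as heterodimers with a DP protein, and the pocket proteins RB1, RBL1 and RBL2 hold them inactive or turn them into repressors until cyclin-dependent kinases phosphorylate the pocket. E2F1, E2F2 and E2F3 are the activators of the G1/S transition. E2F4 and E2F5 act mainly as repressors with RBL1 and RBL2, E2F6 represses with Polycomb proteins and without a pocket protein, and E2F7 and E2F8 are atypical repressors that bind DNA without DP.

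The 4 libraries held 12861388 to 15717449 estimated counts each after the per-library scaling of the deposited values was undone. Levels are given as the deposited TPM, a unit meant to scale each transcript by its length and each library by its depth. The deposited TPM summed to 1000097 and 975806 in PANC-1 and to 940619 and 943632 in PZT-2. The libraries thus did not share a common total, and the sum of PANC-1 1 lay above what plain TPM can reach. Whether the deposited TPM carry a factor per library was not tested, nor was the part of this gap in small TPM differences. Differences come from edgeR's quasi-likelihood test on gene counts with Benjamini-Hochberg adjustment over all genes tested, at an adjusted p of 0.05. H2AFZ was at 6386 and 6031 normalized counts in PANC-1 and at 2211 and 2258 in PZT-2 (log2 fold change -1.47, SE 0.0565, adjusted p = 6.18e-05), and H2AFV was at 3343 and 3451 against 2589 and 2716 (-0.36, SE 0.0568, adjusted p = 0.00564). Both targeted genes were therefore lower in the libraries labelled as knockdown. The H2AFV call was lost without the library PZT-2 1, where the log2 fold change was -0.32 and fewer of all genes passed as well. Of 8 ductal epithelial markers all had values, and their summed level, carried by KRT8, KRT18 and KRT19, was 7324 and 7292 TPM in PANC-1 and 3903 and 3827 TPM in PZT-2. CDH1, an epithelial cadherin, was at 3.03 and 3.90 TPM in PANC-1 and at 0 and 0.497 TPM in PZT-2. SOX9, a ductal transcription factor, was instead the higher in PZT-2 (73.6 and 66.6 against 84.4 and 81.1 TPM), and EPCAM was lower by a small margin (7.99 and 8.24 against 7.90 and 6.37 TPM). The acinar and endocrine markers were without a value and were not analysed here, while 1 marker each of fibroblasts (COL1A1, 10.5 and 11.4 against 3.61 and 2.86 TPM), immune cells (CD68, 114 to 122 TPM) and endothelium (PECAM1, at most 0.236 TPM) had one.

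Stretches of 150 bases before the transcription start are shown for 2 sets of members, the 3 activators and the 3 genes that passed the test, because E2F genes are themselves known E2F targets. The sequences are RefSeq's (GRCh38.p14), 8 of the 10 members had an entry (E2F5 and E2F8 did not), and capitals mark the letters of searched motifs on either strand. The activators read as follows, with the upstream of 2 E2F3 starts.
E2F1 (chr20:33686386-33686535, minus strand): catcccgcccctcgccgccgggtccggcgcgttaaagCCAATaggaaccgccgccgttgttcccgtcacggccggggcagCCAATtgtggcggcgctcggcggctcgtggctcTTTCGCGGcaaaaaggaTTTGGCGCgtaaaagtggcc
E2F2 (chr1:23531234-23531383, minus strand): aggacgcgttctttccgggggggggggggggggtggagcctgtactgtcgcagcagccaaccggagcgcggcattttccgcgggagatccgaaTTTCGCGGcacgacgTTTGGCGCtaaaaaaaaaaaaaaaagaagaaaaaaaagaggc
E2F3 (chr6:20401729-20401878, plus strand): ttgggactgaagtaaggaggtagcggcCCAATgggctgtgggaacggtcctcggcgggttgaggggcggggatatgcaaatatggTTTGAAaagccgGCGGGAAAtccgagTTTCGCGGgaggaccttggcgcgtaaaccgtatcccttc
The 3 members that rose read as follows, with the most upstream of 3 TFDP2 starts.
E2F6 (chr2:11466162-11466311, minus strand): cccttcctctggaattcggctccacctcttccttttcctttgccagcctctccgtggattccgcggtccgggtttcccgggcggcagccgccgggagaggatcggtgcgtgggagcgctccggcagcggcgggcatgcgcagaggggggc
E2F7 (chr12:77065570-77065719, minus strand): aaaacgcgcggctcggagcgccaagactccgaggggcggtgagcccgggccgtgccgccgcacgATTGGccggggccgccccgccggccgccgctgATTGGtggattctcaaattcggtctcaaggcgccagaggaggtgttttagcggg
TFDP2 (chr3:142149545-142149694, minus strand): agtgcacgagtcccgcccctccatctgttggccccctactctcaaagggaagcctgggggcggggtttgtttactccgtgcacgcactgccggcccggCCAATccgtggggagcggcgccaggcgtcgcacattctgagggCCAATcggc

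The letters TTTGGCGC, an E2F site, stood 20 bases before the E2F1 start and 42 bases before the E2F2 start, and occurred in 0.652% of all 35116 promoter windows. TTTCCCGC stood in the upstream E2F3 window on the opposite strand, 53 to 46 bases before the start, and occurred in 1.63% of windows. TTTCGCGG, added after the sequences had been seen, stood in E2F1, E2F2 and the upstream E2F3 window, beginning 57 to 37 bases before the start, and in 0.416% of windows. The downstream E2F3 window, at the start of the leading transcript NM_001243076, held none of the motifs searched. None of the E2F site letters searched (TTTCGCGC, TTTGGCGC, TTTCCCGC, TTTCGCGG) occurred in the windows of E2F4, E2F6, E2F7 or TFDP2. TFDP1 held TTTCGCGC on the opposite strand, 120 to 113 bases before its start, a motif of 0.515% of windows. The CCAAT box, found in 34.6% of windows, occurred in E2F1, the upstream E2F3 window, E2F7 and the upstream TFDP2 window, and the CHR element TTTGAA, found in 15.2%, in the upstream E2F3 window and in the downstream TFDP2 windows. These matches describe letters only, and no binding was measured here.

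In PANC-1 the genes of the family lay at 3 levels. TFDP1, E2F4 and E2F1 were the most abundant, at 88.3 ± 6.23, 84.3 ± 4.46 and 73.4 ± 0.728 TPM (SD, n = 2). The ranges of TFDP1 and E2F4 overlapped, and both lay above E2F1 in each library. E2F6 (21.9 ± 1.37 TPM), E2F3 (18.2 ± 1.07 TPM) and E2F5 (14.2 ± 0.514 TPM) formed the middle. TFDP2 (9.11 ± 0.00552 TPM), E2F7 (8.03 ± 0.357 TPM), E2F2 (6.50 ± 1.07 TPM) and E2F8 (6.19 ± 1.01 TPM) were the lowest, and E2F2 and E2F8 overlapped. In PZT-2 the order was the same but for E2F4 (86.4 ± 5.48 TPM), which passed TFDP1 (80.6 ± 0.996 TPM), and E2F8 (5.50 ± 0.350 TPM), which overlapped with E2F2 (4.96 ± 0.427 TPM).

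**Figure D1:**
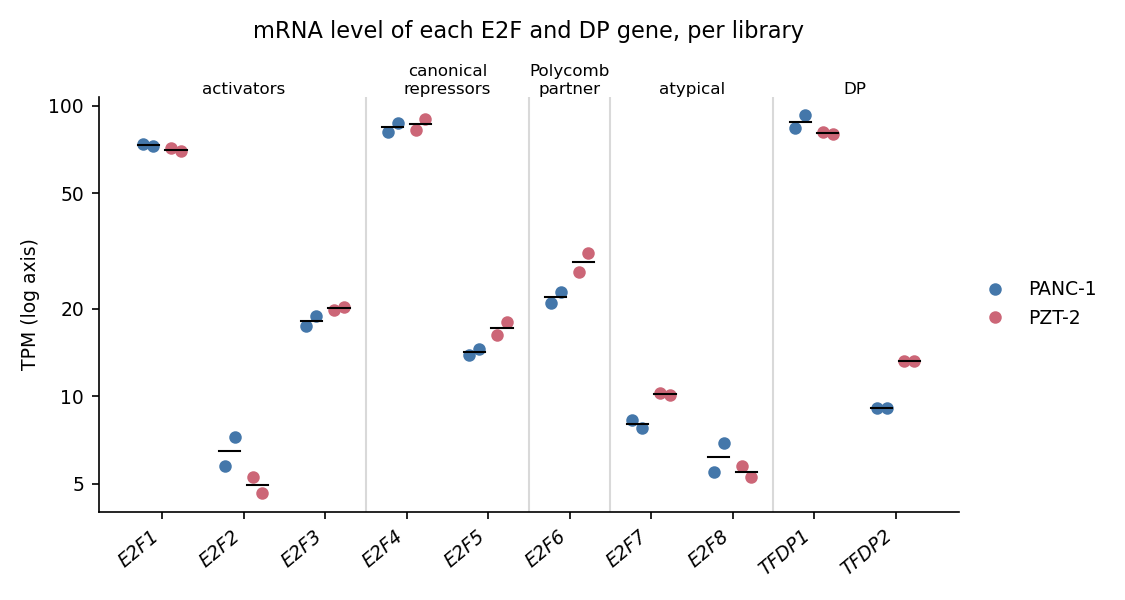
mRNA level of the 10 genes in TPM on a log axis, by role, with 1 point per library and the group mean as a bar. TFDP1, E2F4 and E2F1 sit at 69.8 TPM or more in every library. The PZT-2 points lie above the PANC-1 points for E2F3, E2F5, E2F6, E2F7 and TFDP2, of which E2F3 and E2F5 did not pass the test.

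Of the 10 genes 3 changed, and all 3 rose in PZT-2, namely E2F6, E2F7 and TFDP2. The number of calls moved when 1 library was left out, among the members as among all genes tested. Over these fits the log2 fold change ran from 0.31 to 0.52 for E2F6, from 0.31 to 0.40 for E2F7 and from 0.54 to 0.55 for TFDP2. None of the 3 activators passed edgeR's test in either direction, with 1 of them (E2F2) at an unadjusted p under 0.05, and none passed with DESeq2. In bulk RNA, fewer cells expressing a gene and less RNA of it per cell cannot be told apart. Over all genes tested 28.4% passed the test, 14.7% higher and 13.7% lower in PZT-2, so that 30.0% of the members is close to the share of all genes. The libraries of the lines did not overlap for 8 of the 10 members (5 higher, 3 lower), against 66.2% of all genes. The median log2 fold change of the members was 0.10, and that of all genes was 0.00.

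E2F1, the activator best known for driving S-phase entry, was the most abundant activator. Its level was 73.9 and 72.9 TPM in PANC-1 and 71.6 and 69.8 TPM in PZT-2. The PZT-2 libraries were the lower, without overlap, but the difference was small (log2 fold change -0.04, SE 0.0582, adjusted p = 0.657). The 95% interval ran from -0.18 to 0.10. E2F2, a second activator with a low level in most cells, was at 5.75 and 7.26 TPM in PANC-1 and at 5.26 and 4.66 TPM in PZT-2. Both PZT-2 libraries were below both PANC-1 libraries (log2 fold change -0.38, SE 0.146, adjusted p = 0.0982), and the PANC-1 libraries themselves were far apart. The E2F2 difference passed the test only without the library PANC-1 1 (-0.54, adjusted p = 0.0150). E2F3, which gives a long and a short activator protein from separate starts, was at 17.5 and 19.0 TPM in PANC-1 and at 19.9 and 20.3 TPM in PZT-2. Its PZT-2 libraries were the higher, without overlap and without passing the test (0.16, SE 0.0787, adjusted p = 0.178, 95% interval -0.03 to 0.35). The estimates thus lay below 0 for E2F1 and E2F2 and above 0 for E2F3. None passed the test, and whether the activators differed from each other was not tested.

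E2F4, the main E2F of resting cells and the DNA-binding subunit of the DREAM repressor, was at 81.1 and 87.4 TPM in PANC-1 and at 82.5 and 90.3 TPM in PZT-2. The groups overlapped (0.05, SE 0.0737, adjusted p = 0.678, 95% interval -0.13 to 0.22). E2F5, the other pocket-bound repressor, was at 13.8 and 14.6 TPM in PANC-1 and at 16.3 and 18.0 TPM in PZT-2. It was higher in both PZT-2 libraries and missed the threshold (0.28, SE 0.116, adjusted p = 0.123).

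E2F6 rose. It lacks the activation and pocket-binding domains of the other E2Fs and sits in the variant Polycomb complex PRC1.6, which silences germline genes. Its level was 20.9 and 22.9 TPM in PANC-1 and 26.9 and 31.1 TPM in PZT-2, with all PZT-2 values above all PANC-1 values (log2 fold change 0.42, SE 0.0987, adjusted p = 0.0225, 95% interval 0.18 to 0.66). Without the library PZT-2 2, the higher of its group, the call was lost (0.31, adjusted p = 0.124). E2F6 has 4 pseudogenes in the RefSeq gene table (TFDP1 has 3, E2F3 has 2 and E2F4 has 1). Whether these copies were among the sequences quantified was not checked. Reads that fit both a gene and a copy may have been divided between them or counted for the gene.

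E2F7 rose too, while E2F8 did not pass the test. These repressors carry 2 DNA-binding domains each and feed back on E2F1 and on G1/S genes. E2F7 was at 8.28 and 7.78 TPM in PANC-1 and at 10.3 and 10.1 TPM in PZT-2, again without overlap (0.36, SE 0.0855, adjusted p = 0.0226, 95% interval 0.16 to 0.57). This call was the least stable of the 3, lost under 6 of 14 alternatives, with DESeq2 (adjusted p = 0.104), limma-trend on TPM (0.0711 and 0.0756) and without PANC-1 2 (0.0648), PZT-2 1 (0.109) or PZT-2 2 (0.0981). E2F8 was at 5.47 and 6.90 TPM in PANC-1 and at 5.75 and 5.26 TPM in PZT-2. The groups overlapped (-0.16, SE 0.150, adjusted p = 0.473, 95% interval -0.52 to 0.20), and whether E2F7 and E2F8 differed from each other in response was not tested.

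TFDP2 had the largest difference of the 10 genes. It encodes DP2, the less abundant of the DNA-binding partners here. Its level was 9.11 and 9.11 TPM in PANC-1 and 13.2 and 13.2 TPM in PZT-2, the smallest spread within groups of any member (log2 fold change 0.55, SE 0.0637, adjusted p = 0.00191, 95% interval 0.40 to 0.70). It passed the test under all 14 alternatives. TFDP1, which encodes DP1, was at 83.9 and 92.7 TPM in PANC-1 and at 81.3 and 79.9 TPM in PZT-2, so that the PZT-2 libraries were the lower without passing the test (-0.11, SE 0.0672, adjusted p = 0.258). Without the library PANC-1 1 the TFDP1 difference passed (-0.18, adjusted p = 0.0461). TFDP2 made up 9.80% and 8.95% of the DP transcripts by TPM in PANC-1 and 13.98% and 14.2% in PZT-2.

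Genes near TFDP2 were also higher in PZT-2. TFDP2 lies on chromosome 3, where the other 832 genes tested had a median log2 fold change of 0.43, with 403 higher and 21 lower. Within 5 Mb of TFDP2, 33 genes had a median of 0.35, and 13 of them were higher and 0 lower by the edgeR test. E2F6 lies on chromosome 2, where the median was 0.12, and the 34 genes within 5 Mb had a median of 0.28 with 12 higher and 3 lower. For E2F7 on chromosome 12 the median was -0.23 over 19 genes within 5 Mb, with 3 higher and 2 lower, and -0.04 over the chromosome. For the remaining members the chromosome medians ran from -0.05 (chromosome 11, E2F8) to 0.01 (chromosome 20, E2F1). The part of the surrounding chromosome in the TFDP2 and E2F6 differences was not tested.

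**Figure D2:**
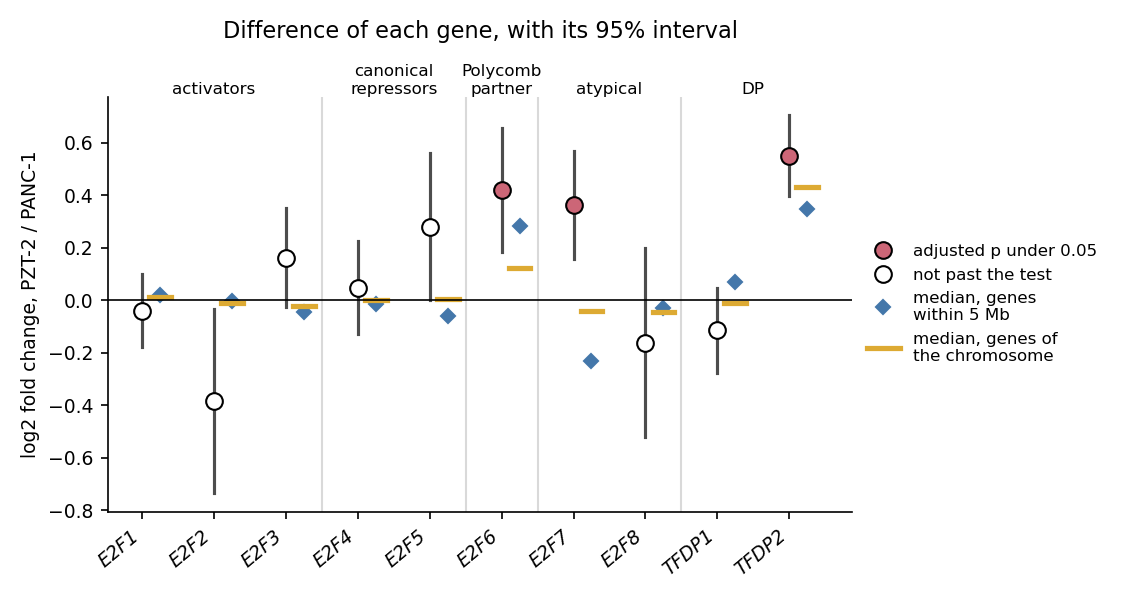
Log2 fold change of PZT-2 over PANC-1 for the 10 genes with 95% intervals (circles, filled where the adjusted p is under 0.05), beside the median of genes within 5 Mb (diamonds) and of the rest of the chromosome (bars). TFDP2 (0.55) stands beside a chromosome median of 0.43, and E2F7 (0.36) beside a 5 Mb median of -0.23.

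Activators and repressors were set side by side by their summed level, as a description without a test. The activators E2F1, E2F2 and E2F3 summed to 97.1 and 99.1 TPM in PANC-1 and to 96.8 and 94.8 TPM in PZT-2. The 5 repressor E2Fs summed to 130 and 140 TPM in PANC-1 and to 142 and 155 TPM in PZT-2. The ratio of activators to repressors was 0.749 and 0.710 in PANC-1 and 0.683 and 0.613 in PZT-2, lower in both PZT-2 libraries, and with 2 libraries against 2 no exact permutation test can go below p = 0.33. Most of the repressor sum was E2F4, at 35.8% and 36.6% of all E2F transcripts by TPM in PANC-1 and 34.6% and 36.2% in PZT-2. E2F6 made up 9.23% and 9.58% of E2F transcripts in PANC-1 and 11.3% and 12.5% in PZT-2, and E2F7 and E2F8 together 6.06% and 6.15% against 6.73% and 6.16%. Without E2F4 the mean ratio was 1.95 in PANC-1 and 1.55 in PZT-2. A ratio of mRNA levels weighs all proteins alike and says nothing of their activity.

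**Figure D3:**
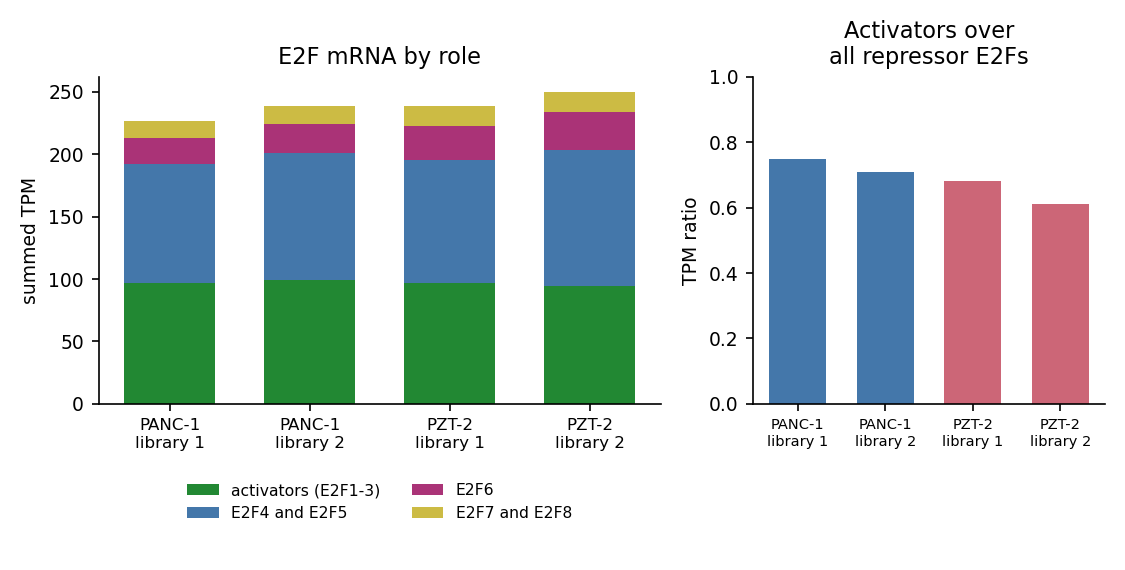
Summed TPM of the E2F genes by role in each library (stacked bars) and the ratio of the activator sum to the sum of the 5 repressors (bars from 0). The activator block stays between 94.8 and 99.1 TPM, and the ratio goes from 0.749 and 0.710 in PANC-1 to 0.683 and 0.613 in PZT-2.

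The 10 genes were measured through 23 transcripts, whose values are kallisto's division of reads between similar sequences. None of the 23 passed the edgeR test over all 30403 transcripts, of which 0.148% passed. An unadjusted p under 0.05 was found for 4 of the 23 and for 18.5% of all transcripts. With DESeq2 3 of the 23 passed, and the share of all transcripts that passed with DESeq2 is not given here. That count therefore cannot be read as an excess. For E2F6 the transcript NM_198256 led the gene. It made up 51.9% and 53.5% of the E2F6 TPM in PANC-1 and 63.7% and 65.5% in PZT-2, at 10.9 and 12.2 TPM against 17.1 and 20.4 TPM. Its libraries did not overlap (log2 fold change 0.71, SE 0.144, adjusted p = 0.128), and each of the other 4 E2F6 transcripts overlapped between the lines. For TFDP2 the transcript NM_001178139, from the upstream start shown above, led with 60.9% to 69.1% of the gene's TPM in all libraries. It was at 6.02 and 5.71 TPM in PANC-1 and at 8.05 and 9.15 TPM in PZT-2 (0.56, SE 0.0997, adjusted p = 0.115). NM_006286, from the downstream start, was at 0.397 and 0.173 TPM in PANC-1 and at 0.798 and 0.996 TPM in PZT-2, higher in both PZT-2 libraries (1.66, SE 0.616, adjusted p = 0.298). NM_001178140 was listed at 0 estimated counts in both PANC-1 libraries and at 24.5 and 15.01 in PZT-2, and did not pass the edgeR test. Against a floor of 3 counts per library the PZT-2 mean was 6.63-fold higher. That value is not a lower bound, because listed counts near 0 also varied within a line. NM_001256372 of E2F8 was at 0.000384 and 31.9 estimated counts in PANC-1 and at 47.6 and 0.00517 in PZT-2.

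The E2F3 transcripts encode different activators, E2F3a from NM_001949 and E2F3b from NM_001243076. E2F3b was at 11.9 and 10.4 TPM in PANC-1 and at 11.99 and 11.3 TPM in PZT-2, and E2F3a was at 5.53 and 8.55 TPM against 7.90 and 9.04 TPM. Both overlapped between the lines (adjusted p = 0.878 for E2F3b and 0.739 for E2F3a), and the share of E2F3a differed more between the PANC-1 libraries (31.7% and 45.0%) than between the lines. The E2F8 transcripts were divided unevenly within groups, NM_001256371 at 40.8 and 12.8 estimated counts in PANC-1 and at 27.1 and 0 in PZT-2. Such transcripts carried no usable difference at this depth, and gene sums are the firmer values.

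**Figure D4:**
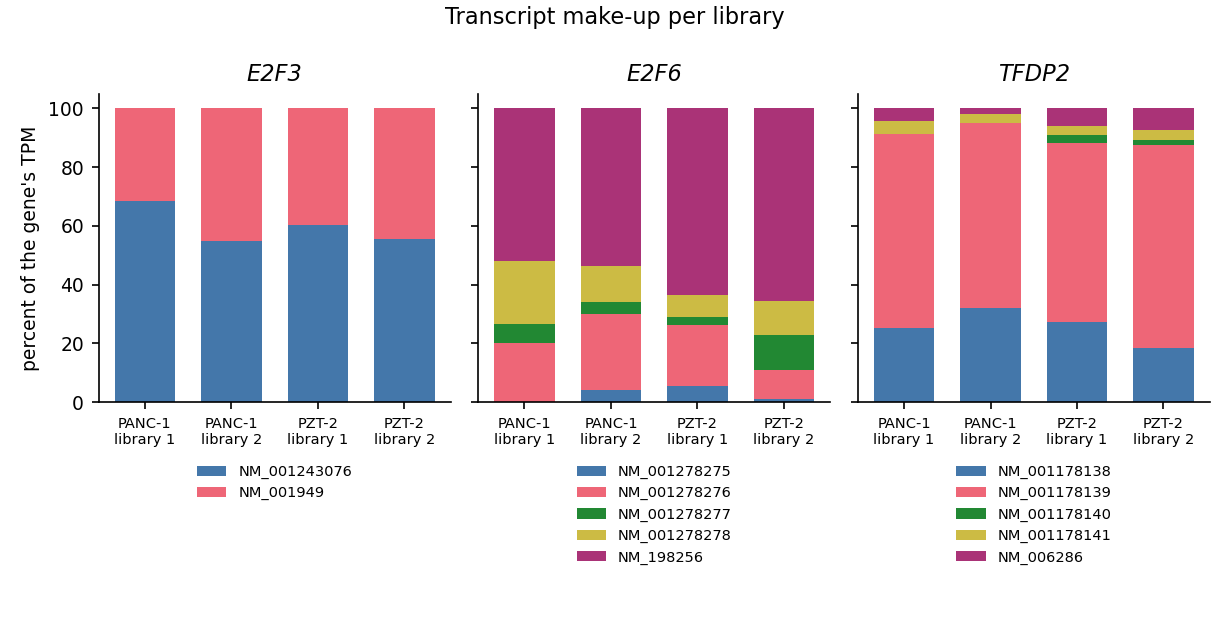
Percent of each gene's TPM carried by its listed transcripts in the 4 libraries, for E2F3, E2F6 and TFDP2. NM_198256 takes 51.9% and 53.5% of E2F6 in PANC-1 and 63.7% and 65.5% in PZT-2, while the E2F3 division varies within PANC-1.

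The genes that act with the E2Fs or answer to them were read from the same fit. Of 99 genes tested in the lists below, 38 passed (38.4%), 15 higher and 23 lower, against 28.4% of all genes. The number of calls and their split moved with single libraries, and the number of all genes called moved as well. Lower calls were the more frequent except without PANC-1 2, where higher calls were. The pocket proteins, which bind E2Fs directly, did not pass. RB1 was at 9.87 and 11.6 TPM in PANC-1 and at 9.15 and 10.1 TPM in PZT-2 (log2 fold change -0.15, SE 0.111, adjusted p = 0.371). RBL1 (p107; -0.26, SE 0.112, adjusted p = 0.133) and RBL2 (p130; -0.22, SE 0.0947, adjusted p = 0.137) were lower in both PZT-2 libraries. None of the 3 was under an unadjusted p of 0.05 with edgeR or DESeq2, although all 3 values were below 0.

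Of the MuvB core, which joins E2F4 in DREAM and then MYBL2 and FOXM1 as the cycle proceeds, only FOXM1 changed among the 7 genes of the list. FOXM1, the forkhead activator of mitotic genes, was at 69.5 and 73.9 TPM in PANC-1 and at 54.0 and 48.6 TPM in PZT-2 (-0.47, SE 0.0735, adjusted p = 0.00530), and passed under all 14 alternatives. MYBL2, which is also a G1/S E2F target, was at 166 and 167 TPM against 173 and 175 TPM (0.08, adjusted p = 0.319). The core subunits LIN9 (0.20, adjusted p = 0.557), LIN37 (-0.27, adjusted p = 0.248), LIN52 (0.19, adjusted p = 0.425), LIN54 (0.01, adjusted p = 0.973) and RBBP4 (-0.16, adjusted p = 0.0894) did not pass, although RBBP4 did without PANC-1 1 (-0.22, adjusted p = 0.0120).

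Genes of G2 and mitosis that DREAM represses and MYBL2 and FOXM1 activate were mostly lower. Of 25 tested, 14 fell (56.0%, against 13.7% of all genes), 1 rose, and the median log2 fold change was -0.31. TOP2A, which decatenates chromosomes, was at 84.4 and 103 TPM in PANC-1 and at 59.3 and 52.4 TPM in PZT-2 (-0.73, SE 0.105, adjusted p = 0.00398). ANLN, an organizer of the cleavage furrow (-0.67, SE 0.0958, adjusted p = 0.00395), and CENPE, a kinetochore motor (-0.62, SE 0.140, adjusted p = 0.0200), fell as well, and the other 11 lay between -0.57 and -0.27. CENPA, the centromeric histone H3 variant, was the one that rose (0.51, SE 0.0756, adjusted p = 0.00455). CENPE was not past the threshold without PZT-2 2 (adjusted p = 0.115). The number of calls in this list moved with single libraries, as did that of all genes tested. Lower calls outnumbered higher ones whichever library was left out.

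The G1/S genes that E2F sites control did not move one way. Of 41 tested, 9 rose (22.0%, against 14.7% of all genes), 4 fell (9.76%, against 13.7%) and 28 did not pass, with a median of 0.08. CDC25A, the phosphatase that frees CDK2, was at 11.3 and 14.9 TPM in PANC-1 and at 22.5 and 23.5 TPM in PZT-2 (0.82, SE 0.133, adjusted p = 0.00587). The mismatch repair gene MSH6 (0.79, SE 0.108, adjusted p = 0.00330) and the replication licensing gene CDC6 (0.56, SE 0.102, adjusted p = 0.00891) rose too, and the other 6 lay between 0.27 and 0.40. CDC25A and MSH6 lie on chromosomes 3 and 2. The chromosomes of the other genes in these lists are not given here, and some may be the same. The part of the chromosome was not tested for any gene of the lists. The catalytic polymerase subunit POLA1 (-0.68, SE 0.115, adjusted p = 0.00704) and the helicase subunits MCM7 (-0.31, SE 0.0482, adjusted p = 0.00521) and MCM5 (-0.28, SE 0.0611, adjusted p = 0.0175) fell. The number of calls in this list moved with single libraries, as did that of all genes tested. Higher calls were the more frequent except without PANC-1 1, where higher and lower calls were even.

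Of 8 G1 cyclins and CDKs, which release E2Fs from the pocket proteins, 4 rose, against 14.7% of all genes, and 1 fell, with a median of 0.41. CCND1, cyclin D1, was at 111 and 124 TPM in PANC-1 and at 181 and 187 TPM in PZT-2 (0.66, SE 0.0667, adjusted p = 0.00117). CCND3 (0.49, SE 0.0757, adjusted p = 0.00490) and CDK2 (0.42, SE 0.0587, adjusted p = 0.00364) rose, and CDK4 fell (-0.28, SE 0.0605, adjusted p = 0.0167), a call lost without either PZT-2 library (adjusted p = 0.124 and 0.0756). Of 5 CDK inhibitors tested, CDKN1A (p21) rose, from 65.6 and 48.3 TPM to 85.1 and 103 TPM (0.74, SE 0.157, adjusted p = 0.0153, and 0.0784 without PZT-2 2), and CDKN2C (p18) fell (-0.51, SE 0.0760, adjusted p = 0.00464). In all, 2 of the 5 CDK inhibitors passed, 1 higher and 1 lower, against 28.4% of all genes. CDKN2A and CDKN2B were without a value and were not analysed here.

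Of the 12 partners of E2F6 in PRC1.6 that were tested, 1 rose and 2 fell (3 of 12 called, near the 28.4% of all genes), with a median of 0.07. MGA, the scaffold of the complex (-0.40, SE 0.103, adjusted p = 0.0295), and L3MBTL2, its histone-binding subunit (-0.34, SE 0.0754, adjusted p = 0.0180), fell, and RYBP rose (0.43, SE 0.0941, adjusted p = 0.0165). The calls of this list moved with single libraries, as did the number of all genes called. They were lost without PZT-2 2, where fewer of all genes passed as well. Of 12 germline genes that E2F6 and PRC1.6 silence, 2 had values and neither passed with edgeR or DESeq2 or had an unadjusted p under 0.05. SYCE2 was at 32.6 and 23.5 normalized counts in PANC-1 and at 20.1 and 6.92 in PZT-2 (adjusted p = 0.194), and STAG3 was at 11.2 and 9.94 against 0 and 13.8 (adjusted p = 0.727), counts too low to show a modest difference. STAG3 passed without PZT-2 2 (adjusted p = 0.0339), which left PZT-2 at 0 counts.

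**Figure D5:**
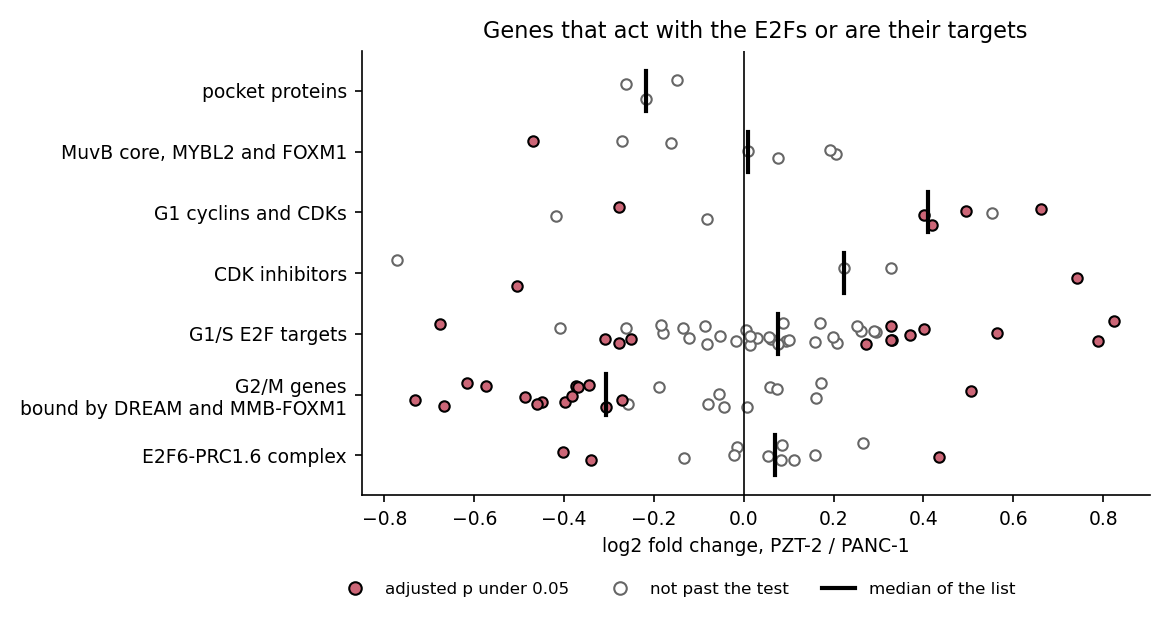
Log2 fold change of PZT-2 over PANC-1 for every tested gene of 7 lists (points, filled where the adjusted p is under 0.05) with the list median as a bar and random vertical offsets. The G2/M genes lie mostly left of 0 (median -0.31, 14 of 25 lower), the G1/S targets on both sides (9 higher, 4 lower of 41).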

How the data were processed

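RNA of 2 PANC-1 and 2 PZT-2 libraries was sequenced with a stranded poly(A) kit as paired reads of 76 bases. The authors trimmed reads with Trim Galore 0.4.1 and quantified RefSeq transcripts with kallisto 0.43.0 (100 resamplings); the submitters' processing notes name build hg19. The deposited estimated counts of the authors had been multiplied by a factor per library (0.935 to 1.16), which was undone; of low values, 49.0% to 49.8% were then within 0.01 of a whole number, against 0.635% to 2.71% before. The deposited TPM signal was used as given. The deposited comparison columns of the study's sleuth 0.29.0 test hold effects, variances, p-values and q-values and were not used, only gene symbols. Of 31077 transcripts 103, with 0.0466% of counts, had no symbol and were left out.

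Counts were summed per gene, rounded, and tested with edgeR 4.0.16 (R 4.3.3; quasi-likelihood F-test with TMM normalization) where 5 counts were reached in 2 libraries, after the test had been tested on simulated data. SE is the log2 fold change over the root of F. The 95% intervals use the fit's total degrees of freedom (6.48), which add information borrowed from all genes to the residual ones. Normalized counts are scaled to the mean library size. The study calls the libraries of a line biological replicates, while the labels do not say whether they came from separate cultures. The p-values therefore measure the spread between these libraries, moderated by that of all genes tested. DESeq2 1.42.0, limma 3.58.1 and other settings served as alternatives. The members and lists were chosen with earlier results of these data known. Named were all members, the targeted genes, pocket proteins, MuvB, MYBL2 and FOXM1, and up to 3 called genes per direction of each other list. Neighbouring genes were found in the GRCh38.p14 gene table of RefSeq, and starts of transcripts in GENCODE on GRCh38. Scrambled-hairpin control libraries of the study were not analysed here. Intervals cover only the spread between libraries, moderated by that of all genes tested.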

Additional observations from a re-analysis of the deposited data

How the results depend on the processing

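Of 140 tests of the 10 members under 14 alternatives, 128 kept their direction and their side of the threshold, 7 lost the call, 2 gained it and 3 changed sign. The number of members called was 5 without PANC-1 replicate 1 and 1 without PZT-2 replicate 2, and over the leave-one-out fits it ran from 1 to 5. Sign changes came with 1 library left out and were near 0 for most. Over these fits the log2 fold change ran from -0.0194 to 0.113 for E2F4 (below 0 without PANC-1 1 or PZT-2 2), from -0.317 to 0.0133 for E2F8, from -0.0754 to 0.573 for LIN9, from -0.0494 to 0.0643 for LIN54, from -0.0263 to 0.161 for NM_001243076 of E2F3 and from -0.612 to 0.202 for NM_024680 of E2F8. Over the leave-one-out fits the genes called ran from 2033 to 4593, the pathway genes called from 17 to 47, the log2 fold change of H2AFV from -0.39 to -0.32 and that of H2AFZ from -1.52 to -1.44. A left-out library leaves its group with 1, assumed to vary like the other group. Member transcripts called were 3 with DESeq2, whose share over all transcripts is not given here. The ratio of activators to repressors was 0.944 in PANC-1 and 0.824 in PZT-2 on summed CPM, and 1.95 and 1.55 without E2F4. With the replicate number as a block 3737 genes and 3 members were called. The deviations of same-numbered libraries did not go together (correlation -0.0238). With 2 libraries per line this shows no strong shared effect, but it cannot tell whether same-numbered libraries were prepared as pairs. A further dispersion estimate, chosen after seeing the data, called 4444 genes and 3 members. With 2 libraries per line, the differences of E2F3 and E2F5, and that of E2F2 with its spread PANC-1 libraries, were not past the threshold. The cause of each change was not tested.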
